A study of Homo sapiens with 36 samples.

Results

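The replication-dependent histone genes were followed through total RNA and ribosome footprints of WiT49, an established cell line from an anaplastic Wilms tumor, a childhood kidney cancer. They were chosen by name: every protein-coding gene of GENCODE release 29 whose symbol begins with HIST1H, HIST2H, HIST3H or HIST4H. The rule found 71 genes, of 58219 genes listed in the RNA tables and 43582 listed in the footprint tables. By class there were 6 H1, 17 H2A, 18 H2B, 15 H3 and 15 H4 genes. By locus, 55 lay in the HIST1 cluster on chromosome 6, 12 in HIST2 and 3 in HIST3 on chromosome 1, and 1 (HIST4H4) on chromosome 12.

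WiT49 cells were exposed to 2 nM actinomycin D (actD), a drug that intercalates in DNA and blocks transcription, or to its vehicle, dimethyl sulfoxide (DMSO). Exposure lasted 6 h or 72 h without a break, or ran over 2 weeks as 2 cycles of 3 days with drug or vehicle and 4 days in plain medium. Each of the 12 groups of assay, time and treatment held 3 libraries, 18 of total RNA and 18 of ribosome footprints. No label ties a library to a separate culture, so the p-values below measure the spread between these libraries, which may be technical. In 2-week RNA, a library's title and its name disagree on which treatment it had. Those 6 libraries were grouped by name, and every sign given for 2-week RNA turns if the titles are right. All groups share this 1 cell line.

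Replication-dependent histone genes supply the proteins that package newly made DNA. H2A, H2B, H3 and H4 form the core of the nucleosome, and H1 binds the linker DNA between nucleosomes. The genes are transcribed mainly in S phase, and most of their mRNAs carry no poly(A) tail: they end just after a stem-loop that is bound by SLBP, the stem-loop binding protein, and cut with the help of the U7 small nuclear RNA. When DNA synthesis stops, these mRNAs are normally degraded quickly. Replacement variants such as H3F3B and H2AFZ are instead polyadenylated and made throughout the cell cycle.

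The stem-loop was the sequence feature the members shared beyond their names. A perfect stem of 6 paired bases around a 4-base loop, beginning with GG, was searched in the first 100 bases after the stop codon in GENCODE 29 transcripts. It was present in 31 of the 36 members whose annotated 3′ UTR was long enough to hold it (86.1%), and in 96 of 19359 other protein-coding genes (0.496%). The members carried 5 different cores, shown here in capitals within their flanking bases because the cores sort by class.
HIST1H2AC: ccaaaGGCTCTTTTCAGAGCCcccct
HIST1H2BC: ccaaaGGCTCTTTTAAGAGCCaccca
HIST1H3E: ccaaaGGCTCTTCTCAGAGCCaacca
HIST1H4E: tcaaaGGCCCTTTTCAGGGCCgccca
HIST2H4B: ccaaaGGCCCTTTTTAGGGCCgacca
On GRCh38 these sites lie at chr6:26124664-26124689 (plus strand), chr6:26123467-26123492 (minus strand), chr6:26225591-26225616 (plus strand), chr6:26204996-26205021 (plus strand) and chr1:149860764-149860789 (minus strand), all in 3′ UTRs. The core of HIST1H2AC was the most frequent, in 17 H2A, H2B and H3 genes, and that of HIST1H2BC was found in 5 H2B and H3 genes. The core of HIST1H3E occurred in that gene alone. The cores of HIST1H4E (5 genes) and HIST2H4B (3 genes) were found only in H4 genes, and no H4 gene carried another core.

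Promoters also differed by class. RefSeq promoters, taken as 250 bases before to 50 after the start on GRCh38.p14, were found for 61 members. CCAAT, on either strand, was present in 51 of the 61 (83.6%) against 34.6% of all 35116 promoters. It was present in every H1, H2A, H2B and H3 promoter of the set and in 3 of 13 H4 promoters. ATTTGCAT, the octamer motif read on either strand, was present in 11 of 14 H2A and 14 of 18 H2B promoters, in 1 of 10 H3 promoters and in no H1 or H4 promoter, against 1.77% of all promoters. That H3 promoter, of HIST1H3D, is the same stretch as the promoter of the H2A gene HIST1H2AD. Promoters of several divergent H2A and H2B pairs also overlap, so 1 match can count in both classes. TATAAA on either strand was present in 40 of 61 members (65.6%) against 11.5% of all promoters. These are matches of letters, not measured binding. The 218 bases between the starts of HIST1H2BC and HIST1H2AC, a divergent H2B and H2A pair, are shown because RNA counts of HIST1H2AC switched between low and high libraries while those of HIST1H2BC did not. Whether the promoter has a part in that pattern was not tested. The stretch is chr6:26123927-26124144 on GRCh38.p14, plus strand, from RefSeq, with 3 CCAAT matches and 1 ATTTGCAT match in capitals (those on the minus strand read ATTGG and ATGCAAAT).
HIST1H2BC to HIST1H2AC: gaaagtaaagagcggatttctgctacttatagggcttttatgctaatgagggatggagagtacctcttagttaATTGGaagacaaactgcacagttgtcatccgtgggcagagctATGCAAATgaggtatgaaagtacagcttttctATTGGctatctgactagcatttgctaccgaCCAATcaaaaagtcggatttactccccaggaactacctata

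Several members cannot be told apart by short reads. HIST2H4A and HIST2H4B, HIST2H3A and HIST2H3C, HIST2H2AA3 and HIST2H2AA4, and HIST1H4J and HIST1H4K each share an identical coding sequence, and 14 of the 15 H4 genes encode 1 identical protein. The median share of 30-base windows also found in another gene was 0.49% for H1 members, 24.9% for H2A, 36.4% for H2B, 8.18% for H3 and 3.21% for H4. How reads with several matches were assigned is not given in the sources used here, so the values of such members are uncertain one by one. Class totals were therefore given beside single genes.

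RNA libraries held 40221994 to 69240041 counts and footprint libraries 152556 to 1281039, of which 23134 to 283435 fell on protein-coding genes. Tested members had a median of 10872 counts over the 6 libraries at 6 h in RNA and 24 in footprints. Of markers for the line, KRT8 (3639 ± 640 CPM, which sets counts against each library’s scaled total, SD, n = 3, vehicle RNA at 6 h), KRT18, IGF2 and VIM were abundant, WT1 was at 10.6 ± 2.90, and the nephron progenitor genes SIX2, PAX2, EYA1, SALL1 and CITED1 were all under 1 CPM. COL1A2, a mesenchymal marker, was listed at 0 in all 6 RNA libraries at 6 h. Of 6 markers of immune, endothelial and red cells, 2 (PTPRC and HBB) were at 0 in all of them. The 6 together summed to 1.31 to 1.61 CPM in DMSO and 0.519 to 2.15 CPM in actD.

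Histone RNA was abundant in every library, and its share varied widely between libraries. The 71 genes took 0.594% to 2.08% of the protein-coding counts in RNA (median 1.45%) and 0.917% to 4.48% in footprints (median 2.88%). Of the histone counts in RNA, the median share over the 18 libraries was 13.8% for H1, 23.4% for H2A, 24.8% for H2B, 17.3% for H3 and 21.3% for H4. In footprints it was 10.7%, 30.5%, 12.7%, 17.2% and 28.0%. The order varied with time: at 72 h the median RNA share was 24.2% for H4 against 22.7% for H2B, and the median footprint share was 23.6% for H3 against 22.7% for H2A. The assays used separate libraries and separate preparations, so the difference was not tested.

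**Figure D1:**
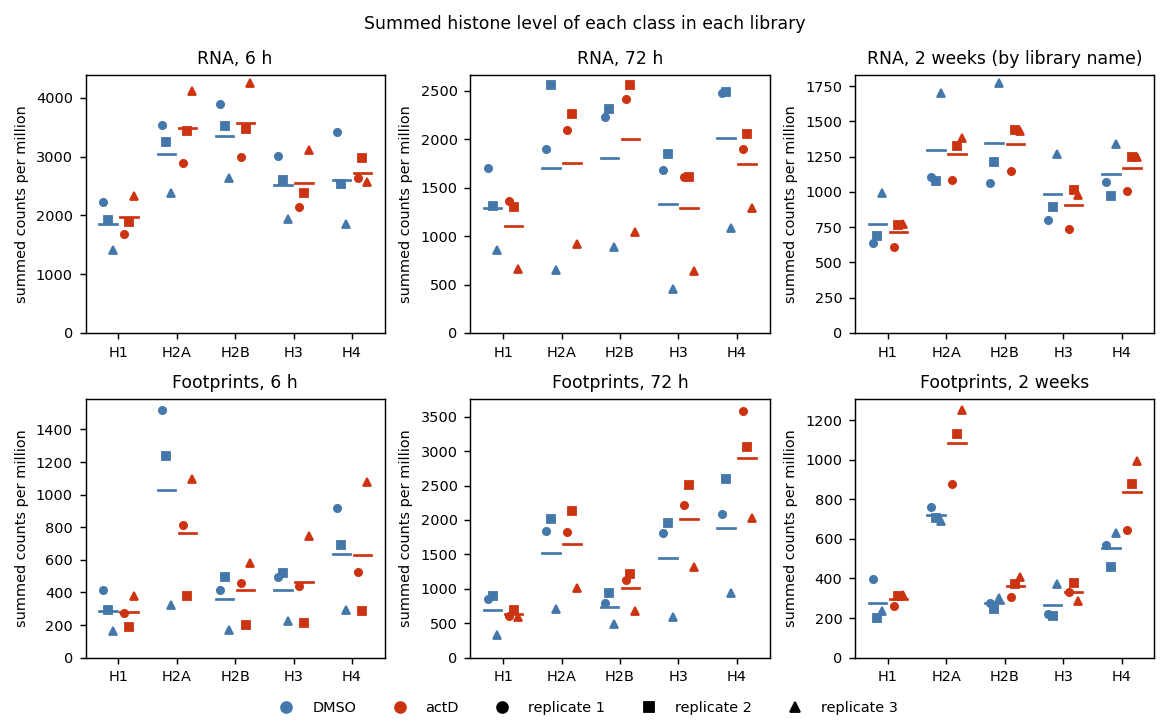
Summed histone level of each class (x axis) in CPM (y axis, from 0) for the 6 tables, with DMSO libraries in blue, actD libraries in red, 1 symbol per replicate and a bar at each group mean. The vehicle and actD points intermingle in RNA, and at 2 weeks in footprints the 3 actD points for H2A, H2B and H4 lie above the 3 DMSO points.

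Levels can be compared between genes only per length, here CPM per kilobase of annotated exon for RNA and of coding sequence for footprints, in vehicle libraries. HIST1H1E, a linker histone, had the highest level per length of all members in RNA at 6 h (1070 ± 248, SD, n = 3) and at 72 h (710.1 ± 282), ahead of HIST2H2AA4 (1010 ± 226) at 6 h and HIST1H4C (640.9 ± 184) at 72 h. Those neighbors did not differ beyond their spread. At 2 weeks HIST1H4K (430.5 ± 76.8), HIST2H2AC (396.3 ± 92.8) and HIST1H1E (382.8 ± 91.0) led, again within their spread. In footprints the core histone HIST1H4E was among the 2 highest at each time, with 461.3 ± 281 at 6 h, 1087 ± 519 at 72 h and 466.8 ± 129 at 2 weeks.

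Footprint level per length over RNA level per length was lowest for H1 at each time. The 4 H1 genes tested in both assays had a median ratio of 0.166 at 6 h, 0.560 at 72 h and 0.284 at 2 weeks. The next lowest class median was 0.354 for H2A at 6 h, 1.09 for H2B at 72 h and 0.552 for H2A at 2 weeks. This order depends on annotated length: HIST1H4E, for example, carries 1082 bases of annotated 3′ UTR although its stem-loop begins 44 bases after the stop codon, which lowers its RNA level per kilobase. From CPM with no length term, H1 was lowest at 6 h only (0.161, against 0.165 for H3). H2B was then lowest at 72 h (0.432, against 0.520 for H1) and at 2 weeks (0.188, against 0.283 for H1).

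**Figure D2:**
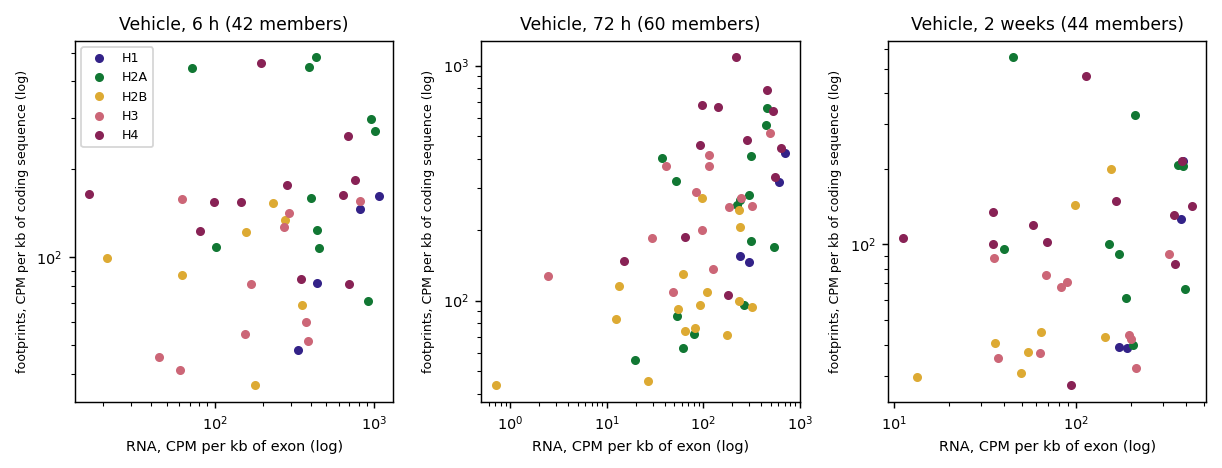
Mean level of each member in vehicle libraries, RNA per kilobase of exon (x axis, log scale) against footprints per kilobase of coding sequence (y axis, log scale), 1 point per member tested in both assays, colored by class, for 6 h, 72 h and 2 weeks. The H1 points have ratios of footprints to RNA between 0.143 and 0.644, with the lowest class median at each time. Single members of other classes have lower ratios at each time. Without the length term H1 had the lowest class median at 6 h only.

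No histone gene passed the test in any comparison of actD with DMSO. Each table was fitted with edgeR's quasi-likelihood test over all its genes, and a gene was called at a Benjamini-Hochberg adjusted p under 0.05. In bulk libraries, fewer cells in S phase and less histone RNA per cell cannot be told apart. Members are measured in the same libraries and some share sequence, so counts of members by sign are not counts of independent observations. Many differences also had no stable sign: over the 6 tables, 192 of the 341 fitted member differences changed sign under at least 1 of the alternatives run, among them 51 of the 97 of the members named by rule (the 15 most abundant and the largest differences).

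**Figure D3:**
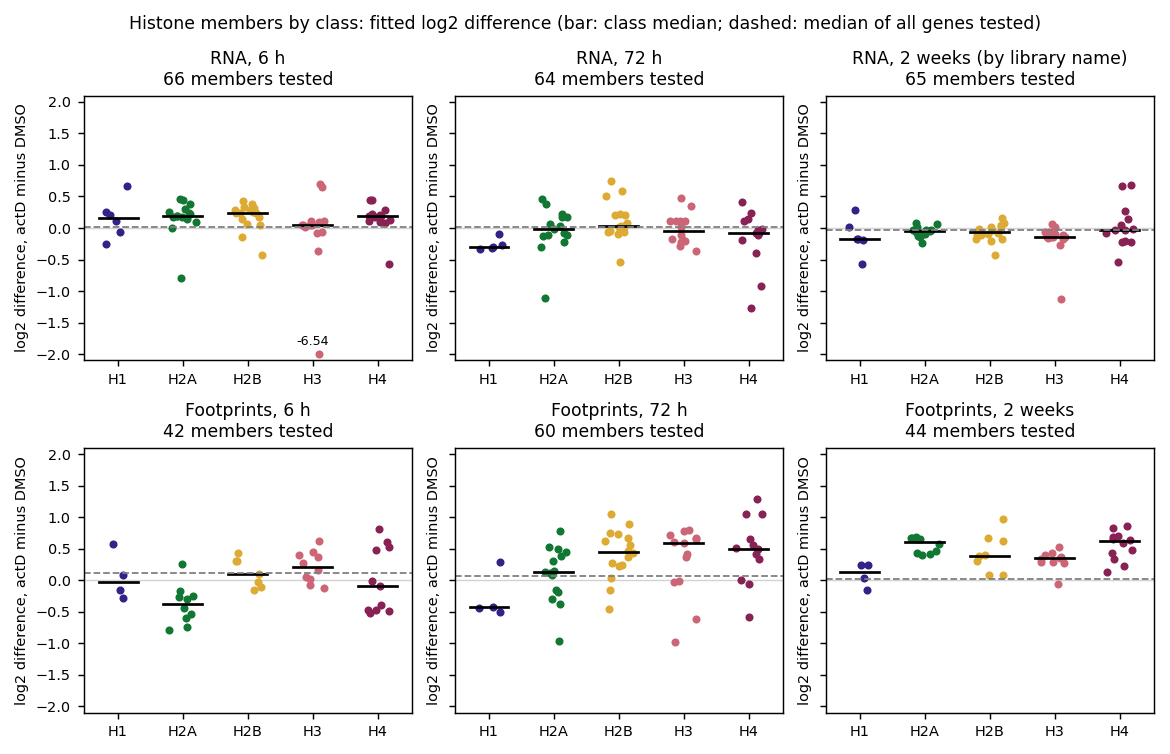
Fitted log2 difference, actD minus DMSO (y axis), of each tested member by class (x axis) in the 6 tables, with a black bar at the class median and a dashed line at the median of all genes tested. Most members lie within 1 log2 unit of 0, the point at the lower edge of the 6 h RNA panel is HIST2H3PS2 at -6.54, and the 2-week footprint panel has 42 of 44 members above 0.

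After 6 h, histone RNA was slightly higher in most members but no change passed the test. Of 66 members tested 56 had a positive difference, with a median log2 difference of 0.18 against 0.02 for all 22669 genes tested. edgeR called 0 members and 0.0% of all genes, while 6 members (9.1%) had an unadjusted p under 0.05, 5 of them positive, against 8.21% of all genes. DESeq2 called 204 genes, 1 of them a member (HIST2H3PS2, described below). The median difference was 0.16 for H1, 0.19 for H2A, 0.24 for H2B, 0.05 for H3 and 0.19 for H4. The 3 actD libraries all lay above the 3 DMSO libraries for 6 members (9.1%), against 7.66% of all genes, and below them for 0 members, against 8.17%. Without DMSO replicate 3, which was low in histones, the median was 0.02, and without actD replicate 3, which was high, it was 0.01.

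The only members with groups apart and an unadjusted p under 0.05 at 6 h were HIST1H3A, HIST3H2A and HIST1H2BM. HIST1H3C (0.70) and HIST1H1T (0.67), with groups apart at levels of at most 1.19 CPM, had larger differences without that p. HIST1H3A RNA was at 29.5, 25.0 and 19.9 CPM in DMSO and 30.3, 36.1 and 50.01 in actD. The groups were apart by a narrow gap, and the log2 difference was 0.65 ± 0.21 (SE), with an adjusted p of 0.536 in edgeR. HIST3H2A was at 47.5, 46.0 and 33.9 CPM in DMSO and 51.4, 53.0 and 71.2 in actD. Its log2 difference was 0.46 ± 0.18 (edgeR, adjusted p = 0.577). HIST1H2BM was at 26.5, 25.0 and 21.7 CPM in DMSO and 26.9, 32.5 and 36.5 in actD, a difference of 0.39 ± 0.15 (edgeR, adjusted p = 0.570). In all 3, actD replicate 3 was the highest library, as it was for the sum of all members (16387 CPM).

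The abundant members overlapped between treatments at 6 h. HIST1H1C, a linker histone, was at 620.6, 544.3 and 398.8 CPM in DMSO and 512.3, 584.5 and 709.7 in actD, a log2 difference of 0.21 with a 95% interval of -0.24 to 0.66. HIST2H2AC was at 423.1, 373.8 and 279.1 CPM in DMSO and 395.6, 450.8 and 551.5 in actD, a difference of 0.38 with an interval of -0.06 to 0.81. HIST2H2BF, an H2B gene with annotated spliced transcripts, was at 785.6, 690.7 and 507.0 CPM in DMSO and 420.0, 467.8 and 581.8 in actD. Its difference was -0.43, with an interval of -0.88 to 0.02. HIST1H1E was at 980.8, 831.4 and 608.7 CPM in DMSO and 676.2, 725.9 and 915.0 in actD, and its difference ran from -0.23 to 0.10 as libraries were left out. In all, 27 of the 66 members changed sign under some alternative at 6 h.

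After 72 h, the histone RNA of both arms was split by replicate, not by treatment. The 71 genes together were at 9992, 10531 and 3916 CPM in the 3 DMSO libraries and 9384, 9785 and 4549 CPM in the 3 actD libraries. Replicate 3 was thus the low library of both arms, and every class shared the drop: H3 was at 1687, 1848 and 449.2 CPM in DMSO and at 1612, 1608 and 644.1 in actD. In CPM the groups overlapped in all 5 classes. As a share of histone counts they were apart for H2B alone (24.9% in actD against 22.3% in DMSO).

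Of the 64 members tested at 72 h, 29 had a positive difference and the median log2 difference was -0.04, against 0.02 for all 21195 genes tested. The sign of that median turned with scaling over protein-coding genes only, which gave 0.02. edgeR called 0 members and 0.00472% of all genes (1 gene), while DESeq2 called 0 members and 605 genes. At an unadjusted p under 0.05 there was 1 member (1.6%) against 13.1% of all genes. No member had treatment groups that did not overlap, in either direction, against 10.5% of all genes above and 10.3% below. The 5 H1 genes tested were all negative, with a median of -0.30, while the medians of H2A, H2B, H3 and H4 were -0.01, 0.02, -0.04 and -0.08. Without DMSO replicate 3 the median of the members was -0.38, and without actD replicate 3 it was 0.31. Without both, 419 genes were called and 0 members, and the median was -0.10. The sign of 56 of the 64 members changed under some alternative, so no direction can be read for single members: HIST1H1E was at 735.1, 558.8 and 312.3 CPM in DMSO and 550.3, 483.0 and 306.2 in actD, and HIST2H2AA4 at 267.7, 382.7 and 100.2 against 343.3, 376.6 and 131.7.

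Of the 15 most abundant members, only an H4 and an H2B gene of the HIST2 cluster kept their sign at 72 h under every alternative run. HIST2H4B was at 314.0, 389.6 and 115.9 CPM in DMSO and 52.7, 132.9 and 152.7 in actD, with DMSO replicate 3 inside the range of the actD libraries. The log2 difference was -1.28 ± 0.52 (SE), with an adjusted p of 0.365 in edgeR. With HIST2H4A, identical to it in coding sequence, the sum of both gave -1.13 ± 0.55 (edgeR, adjusted p = 0.439). HIST2H2BF was at 305.1, 161.0 and 121.4 CPM in DMSO and 380.9, 430.4 and 168.7 in actD, a difference of 0.74 ± 0.45 (edgeR, adjusted p = 0.517). Its 6 h difference had the opposite sign.

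At 2 weeks the RNA libraries, grouped by library name, differed little. Of 65 members tested 17 were positive, with a median log2 difference of -0.07 against -0.02 for all 21137 genes tested. edgeR called 0 members and 0.0% of all genes, with 3 members (4.6%) at an unadjusted p under 0.05 against 8.93% of all genes. DESeq2 called 0 members and 197 genes. The actD-named libraries lay above all others for 2 members (3.1%) and below for 2 (3.1%), against 7.86% and 7.83% of all genes. Without the library named dmso replicate 3, which held the most histone RNA of the 6 (7075 CPM, against 4586 to 5820 in the others), the median was 0.16 and 57 of 65 members were positive. The sign of 54 of the 65 members changed under some alternative.

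Both members with groups apart and an unadjusted p under 0.05 were weakly expressed. HIST1H3C was at 1.69, 2.85 and 3.21 CPM in the libraries named dmso and 0.854, 1.66 and 1.02 in those named actd. The difference was -1.13 ± 0.34 (SE; edgeR, adjusted p = 0.462). HIST1H4I was at 1.41, 1.04 and 1.07 CPM in those named dmso and 1.62, 1.99 and 1.98 in those named actd, a difference of 0.66 ± 0.24 (edgeR, adjusted p = 0.512). HIST2H4B, 1 of the most abundant H4 genes, ranged from 89.0 to 199.4 CPM in the libraries named dmso and from 185.8 to 236.5 in those named actd. Its difference was 0.68 ± 0.28 (edgeR, adjusted p = 0.536). Grouped by name this sign is opposite to that at 72 h, and grouped by title it is the same. HIST2H4A, identical to it in coding sequence, had a difference of -0.54 ± 0.90 (edgeR, adjusted p = 0.882). The sum of both overlapped, at 198.8 ± 83.4 CPM (SD) in the libraries named dmso and 257.8 ± 60.8 in those named actd.

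Footprints at 6 h overlapped between treatments for every member. Of 42 members tested 19 were positive, with a median log2 difference of -0.05 against 0.11 for all 1212 genes tested. edgeR called 0 members and 0.0% of all genes, with 0 members at an unadjusted p under 0.05 against 3.14% of all genes. DESeq2 called 0 members and 12 genes. The actD libraries lay above all DMSO libraries for 0 members, against 3.71% of all genes, and below them for 0, against 5.69%. The sign of 29 of the 42 members changed under some alternative. The H2A class was the most negative, with 9 of 10 members below 0 and a median of -0.37, while 8 of 10 H3 members were positive, with a median of 0.22.

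Histone footprints at 6 h varied about 3-fold within each arm. All members together were at 3761, 3232 and 1172 CPM in DMSO and 2513, 1268 and 3875 CPM in actD. HIST2H2AA3, an H2A gene, was at 178.4, 142.9 and 26.2 CPM in DMSO and 88.9, 29.1 and 112.4 in actD. HIST1H4E was at 233.5, 133.8 and 60.3 CPM in DMSO and 72.3, 52.9 and 173.1 in actD. HIST1H1E was at 172.3, 85.7 and 60.3 CPM against 90.9, 50.3 and 121.4. The 95% interval of the HIST2H2AA3 difference was -2.56 to 1.37 on the log2 scale, which spans changes of either sign. Class totals overlapped between the arms on each scale used, and their ratios of actD to DMSO depended on it. With library totals in place of TMM the H2A ratio went from 0.743 to 0.417, that of H2B from 1.15 to 0.688 and that of H3 from 1.13 to 0.712.

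At 72 h, most tested members of the core histones H2B, H3 and H4 had positive footprint differences and most of H1 negative, but none passed the test. Members with few counts could pass the filter on low counts through actD alone, which favors positive differences, so no rise is read from these numbers of members. Of 60 members tested 43 were positive, with a median log2 difference of 0.38 against 0.07 for all 2426 genes tested. edgeR called 0 members and 3.79% of all genes (92 genes), and DESeq2 also called 0 members. At an unadjusted p under 0.05 there were 2 members (3.3%), both positive, against 27.3% of all genes. The actD libraries lay above all DMSO libraries for 5 members (8.3%) against 19.5% of all genes, so the members' share was below that background, and below them for 0 members against 16.2%. The class medians were -0.43 for H1 (3 of 4 negative), 0.13 for H2A, 0.45 for H2B (14 of 16 positive), 0.59 for H3 and 0.50 for H4.

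Class totals in CPM at 72 h in footprints overlapped in all 5 classes. H4 was at 2084, 2602 and 945.2 CPM in DMSO and 3589, 3062 and 2034 in actD, a ratio of means of 1.54. H3 was at 1808, 1951 and 597.0 CPM against 2214, 2504 and 1320, a ratio of 1.39. H1 was at 852.8, 898.5 and 323.4 CPM against 607.7, 690.7 and 584.1, a ratio of 0.907. These ratios depend on the scale: as a percent of protein-coding counts they were 1.18 for H4, 1.06 for H3 and 0.707 for H1. The ratio of H2B went from 1.37 to 1.06, and that of H2A turned from 1.09 to 0.838. As a share of histone counts the groups were apart for H1 (8.02% in actD against 10.95% in DMSO), H2A (19.9% against 24.0%) and H4 (35.5% against 30.05%). Shares of 1 total are not independent of each other.

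DMSO replicate 3 was the low library again, with 246 histone counts in all against 2505 to 6272 in the other footprint libraries at 72 h. The DMSO libraries held 440974, 215298 and 152556 counts over all genes and the actD libraries 784322, 416131 and 693951. Members with few counts could thus pass the filter on low counts through actD alone, which favors positive differences among those tested. HIST1H2BB, an H2B gene, had 6, 7 and 1 counts in DMSO (13.6, 23.5 and 12.4 CPM) and 23, 12 and 25 in actD (34.3, 32.6 and 29.7 CPM). Its log2 difference was 0.89 ± 0.38 (SE; edgeR, adjusted p = 0.176). HIST1H2BB may have passed the filter in that way, so no rise is read from its difference. HIST1H2BJ was at 40.7, 53.6 and 24.9 CPM in DMSO and 103.0, 111.5 and 51.2 in actD, with 1 actD library inside the DMSO range. The difference was 1.05 ± 0.44 (edgeR, adjusted p = 0.174). Without DMSO replicate 3 the members' median was 0.19, and 55 genes but 0 members were called. Without actD replicate 3 the median was 0.71, and 282 genes but 0 members were called.

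Among the abundant members at 72 h, HIST1H3B footprints were at 266.9, 268.2 and 99.5 CPM in DMSO and 407.6, 372.5 and 202.2 in actD, a log2 difference of 0.59 with a 95% interval of -0.59 to 1.78. HIST2H2AC was at 76.9, 107.3 and 12.4 CPM against 150.8, 149.6 and 76.1, a difference of 0.78 with an interval of -0.53 to 2.09. Its counts were 34, 32 and 1 in DMSO and 101, 55 and 64 in actD, so the value of DMSO replicate 3 rests on 1 count. Neither HIST1H3B nor HIST2H2AC had groups apart. HIST1H1E went the other way, at 393.6, 295.0 and 149.2 CPM in DMSO against 216.5, 228.4 and 188.0 in actD. Its difference was -0.43 with an interval of -1.46 to 0.60. The sign of 16 of the 60 members changed under some alternative.

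At 2 weeks, 42 of the 44 members tested in footprints were positive, the highest share of the 6 tables, and none passed the test. These members share the same 6 libraries and are not independent of each other. Those with few counts may have passed the filter on low counts through their actD libraries, which would favor positive differences among the members tested. The share of positive members and the medians below carry that limit. With identical and overlapping genes summed, 39 of 41 were positive, with a median of 0.41. The sign of 10 of the 44 members changed under some alternative. The median log2 difference of the 44 was 0.42 against 0.02 for all 1598 genes tested. edgeR called 0 members and 0.0% of all genes, and DESeq2 called 0 members and 0 genes. At an unadjusted p under 0.05 there were 2 members (4.5%) against 8.57% of all genes. The actD libraries lay above all DMSO libraries for 8 members (18.2%) against 8.32% of all genes, and below them for 0 members against 6.57%. All 10 H2A, all 8 H2B and all 12 H4 members were positive, with class medians of 0.61, 0.39 and 0.62, while the medians of H3 and H1 were 0.35 and 0.14.

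In CPM, the class totals of H2A, H2B and H4 were apart by treatment at 2 weeks in footprints. H2A was at 758.8, 707.5 and 689.7 CPM in DMSO and 874.9, 1130 and 1252 in actD, a ratio of means of 1.51. H4 was at 569.9, 456.4 and 630.8 CPM against 642.5, 874.4 and 992.6, also a ratio of 1.51. H2B was at 277.2, 243.9 and 301.8 CPM against 307.6, 369.4 and 408.1, a ratio of 1.32. The gap was narrow for H4 and H2B, and it closed for H2B without the scaling between libraries (ratio 1.19) and for both when taken as a percent of protein-coding counts (1.22 and 1.40). H2A stayed apart on each scale, at 1.35 and 1.40. H3 and H1 overlapped, with ratios of 1.24 and 1.07. Members' medians with 1 library left out ranged from 0.30 to 0.52, and without the scaling between libraries the median was 0.27.

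The members behind these totals rested on few counts each. HIST2H2AA3 had 52 to 82 footprint counts in each DMSO library and at least 89 in each actD library, or 80.5, 73.8 and 87.5 CPM against 125.3, 126.5 and 129.7. Its log2 difference was 0.66 ± 0.31 (SE; edgeR, adjusted p = 0.562). HIST2H2AA4, with the same coding sequence, gave 0.69 ± 0.32 and is not a separate observation. HIST2H2BE was at 46.5, 56.7 and 58.9 CPM in DMSO and 86.6, 74.1 and 99.1 in actD, a difference of 0.68 ± 0.31 (edgeR, adjusted p = 0.562). HIST1H4E overlapped, at 188.9, 112.5 and 131.3 CPM against 175.4, 233.7 and 274.0, with a difference of 0.66 ± 0.38 (edgeR, adjusted p = 0.601).

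The largest differences at 2 weeks were in HIST1H2BH and HIST1H4K. HIST1H2BH had only 7, 10 and 10 counts in DMSO and 15, 18 and 21 in actD, which is 10.8, 9.001 and 15.1 CPM against 17.1, 20.5 and 30.6. The log2 difference was 0.97 ± 0.33 (SE; edgeR, adjusted p = 0.527). With so few DMSO counts, HIST1H2BH may have passed the filter on low counts through its actD libraries. HIST1H4K, identical in coding sequence to HIST1H4J, was at 48.0, 36.9 and 46.8 CPM in DMSO and 59.2, 79.8 and 99.1 in actD, a difference of 0.85 ± 0.34 (edgeR, adjusted p = 0.562). HIST1H4J itself overlapped, at 83.6, 52.2 and 63.4 CPM in DMSO and 78.6, 112.9 and 163.2 in actD. Its difference was 0.83 ± 0.40 (edgeR, adjusted p = 0.562). In the other genes of this and the preceding paragraph, HIST1H4E apart, every actD library was above every DMSO library.

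Translational efficiency, the footprint value relative to the RNA value of the same gene, was tested as the interaction of assay and treatment. No member passed: edgeR called 0 of 42 members and 0.0% of 951 genes at 6 h, 0 of 60 members and 0.433% of 2311 genes at 72 h, and 0 of 44 members and 0.0% of 1441 genes at 2 weeks. At an unadjusted p under 0.05 there were 0 of 42, 0 of 60 and 4 of 44 members, against 5.26%, 14.9% and 5.14% of all genes. DESeq2 called 0 members at each time and 1, 60 and 1 genes. The median difference in efficiency was -0.22 at 6 h, 0.09 at 72 h and 0.42 at 2 weeks, against -0.03, 0.03 and -0.02 for all genes. At 2 weeks 39 of 44 members were positive, with the same limit from the filter on low counts as in footprints. The 4 were HIST1H2BH (1.03 ± 0.39, SE) and the H4 genes HIST1H4K (1.02 ± 0.31), HIST1H4J (0.97 ± 0.36) and HIST1H4A (0.81 ± 0.27), each with an adjusted p of 0.879 in edgeR. With the 2-week RNA libraries grouped by title instead, 42 of 44 members were positive, 0 were called, and the median was 0.38.

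The effect of actD was also compared between 72 h and 6 h as an interaction of time and treatment. In RNA, edgeR called 0 of 66 members and 0.0165% of 24251 genes, with 1 member at an unadjusted p under 0.05 against 8.02% of all genes. The median difference of differences was -0.26, against -0.03 for all genes, and all 6 H1 genes were negative. In footprints it called 0 of 60 members and 0.0% of 3012 genes, with 0 members at an unadjusted p under 0.05 against 6.54% of all genes, and the median was 0.42 against 0.22. DESeq2 called 0 members in either assay, with 158 and 6 genes. The member in RNA was HIST2H3PS2, at 6.99 ± 2.04 (SE; edgeR, adjusted p = 0.444).

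Some members had RNA counts that switched between low and high from library to library, whatever the treatment. HIST1H2AC (ENSG00000180573.9, chr6:26124145-26139116, plus strand) had 413, 12622 and 9910 RNA counts in DMSO at 6 h and 577, 12136 and 242 in actD. At 72 h it was at 3.20, 181.6 and 1.56 CPM in DMSO and 2.57, 2.50 and 81.5 in actD. At 2 weeks it had 4922, 133 and 6991 in the libraries named dmso and 4748, 230 and 5294 in those named actd. In all, 9 of 18 RNA libraries, 5 of actD and 4 of DMSO, held at most 577 counts and 9 held 4525 to 12622, with none between.

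HIST1H2BC (ENSG00000180596.7, chr6:26114873-26123926, minus strand), which is read away from HIST1H2AC across the divergent promoter shown above, did not switch. It had 22264, 19481 and 15326 counts in DMSO at 6 h and 19155, 21989 and 24825 in actD, and ranged from 5089 to 24825 over all 18 RNA libraries. The footprints of HIST1H2AC had 305, 130 and 15 counts in DMSO and 50, 19 and 66 in actD at 6 h (39.4 to 311.0 CPM). They ranged from 43.3 to 230.7 CPM at 72 h. At 2 weeks they had 186, 261 and 84 counts in DMSO and 209, 323 and 294 in actD. The annotated HIST1H2AC gene runs for 1668 exon bases over several transcripts, and which of its reads were counted was not tested.

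HIST2H3PS2 and HIST2H4A also had very low counts in some libraries and high counts in others. How reads were assigned between each of them and its overlapping or identical neighbor was not tested. HIST2H3PS2 (chr1:143905556-143905966, minus strand) had 3, 1681 and 1275 RNA counts in DMSO at 6 h and 2, 13 and 15 in actD. The gene AC239798.4, which overlaps it on the same strand, had 2417, 362 and 318 in DMSO and 1852, 1985 and 2282 in actD: where one was high the other was low. The log2 difference of HIST2H3PS2 alone was -6.54 ± 1.65 (SE; edgeR, adjusted p = 0.416), with an adjusted p of 0.0245 in DESeq2 and of 0.0104 in edgeR without DMSO replicate 1. The sum of both genes gave 0.10 ± 0.18 (edgeR, adjusted p = 0.935) and ranged from 24.8 to 39.1 CPM. At 2 weeks HIST2H3PS2 had 4, 1 and 4 counts in the libraries named dmso and 3, 605 and 1 in those named actd, a switch within 1 group.

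HIST2H4A (chr1:149832659-149839767, plus strand) and HIST2H4B (chr1:149854045-149861210, minus strand) had nearly equal counts in some libraries and not in others. At 6 h HIST2H4A had 42673, 5902 and 4368 in DMSO and 30688, 34461 and 4167 in actD. HIST2H4B had 42669, 36392 and 26740 in DMSO and 30667, 34392 and 4191 in actD. In actD replicate 3 both were low, so their sum also moved, from 142.4 to 1318 CPM over the 6 libraries. In footprints at 72 h the actD libraries gave 377, 14 and 393 counts for HIST2H4A and 433, 242 and 11 for HIST2H4B.

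**Figure D4:**
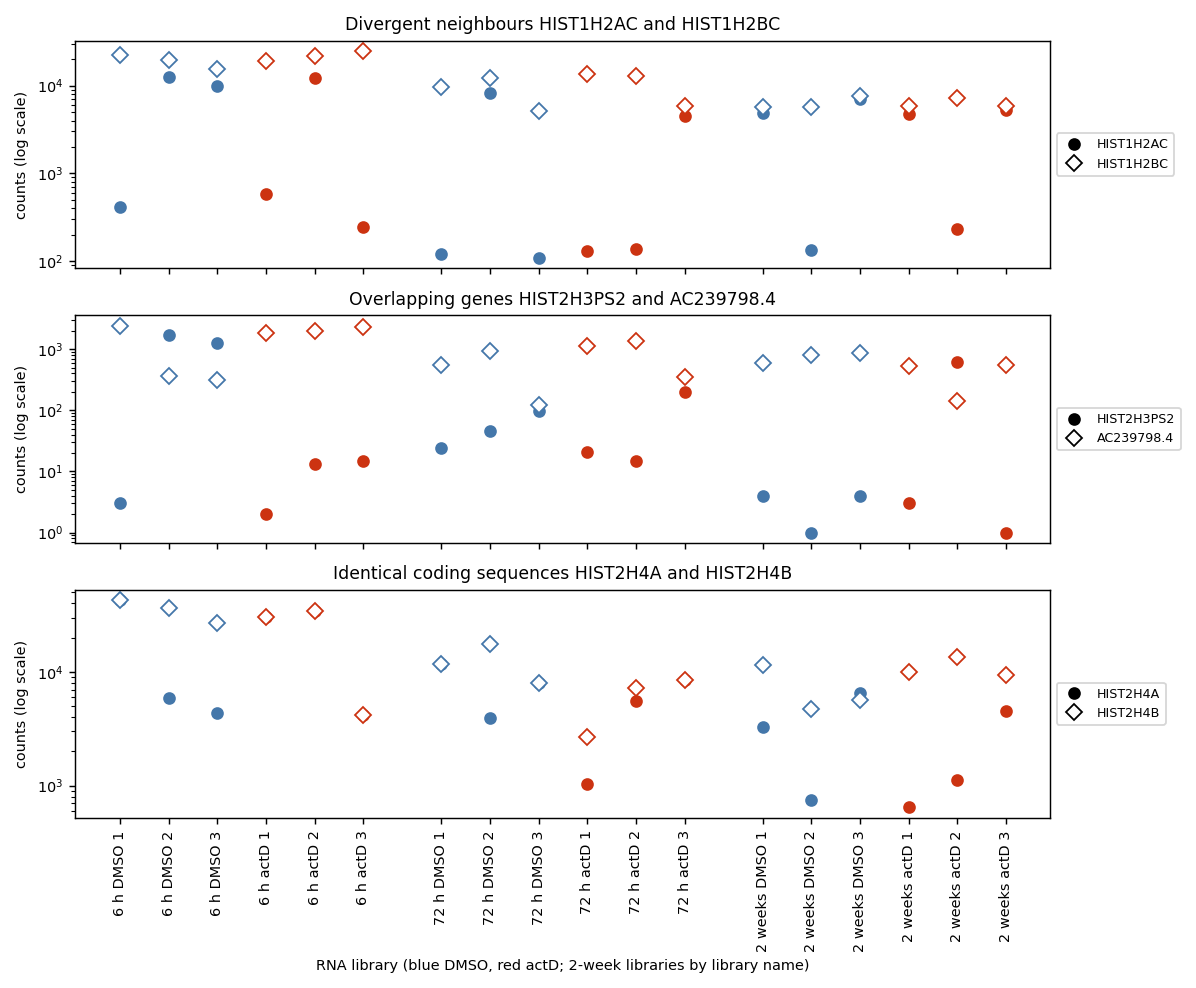
Counts (y axis, log scale) in each of the 18 RNA libraries (x axis) for HIST1H2AC and HIST1H2BC, HIST2H3PS2 and AC239798.4, and HIST2H4A and HIST2H4B, with filled circles for the first gene, open diamonds for the second, DMSO in blue and actD in red. HIST1H2AC falls into 9 low and 9 high libraries under both treatments while HIST1H2BC is never below 5089, and circles hidden by diamonds mark nearly equal counts.

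A spread of 10-fold or more between replicates, in genes with at least 100 counts in a library, was found in 0.554% to 1.86% of all genes per group. Among the 59 to 61 members that qualified there were 1 to 3 per group. HIST1H2AC was among them in all 6 RNA groups and HIST2H3PS2 in 3. HIST1H2BE was among them in DMSO at 72 h, with 180, 3413 and 1123 counts, as was HIST3H2A by CPM.

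Genes that act beside the histone genes were described by lists. The S-phase list holds 32 genes of DNA replication, among them the MCM helicase subunits and RRM1, a subunit of ribonucleotide reductase. At 72 h, 31 of the 32 were negative in RNA, with a median log2 difference of -0.77 against 0.02 for all genes, but edgeR called 0 of them. Of the 32, 13 had an unadjusted p under 0.05, a larger share than the 13.1% of all genes. Their summed level was 2234, 2461 and 993.3 CPM in DMSO and 1061, 1140 and 814.0 in actD. DMSO replicate 3, the library low in histones, was also low in these genes, and its value lay within the actD range. The histone sum in actD replicates 1 and 2 (9384 and 9785 CPM) stayed near that of DMSO replicates 1 and 2 (9992 and 10531), while the S-phase sum did not. That difference between the lists was not tested.

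At 6 h in RNA, 22 of 32 S-phase genes were negative, with a median of -0.08 and 0 called. Of the 32, 9 had an unadjusted p under 0.05, a larger share than the 8.21% of all genes. At 2 weeks 28 of 32 were negative, with a median of -0.16 and 0 called. At that unadjusted level there were 9 of 32, a larger share than the 8.93% of all genes. RRM1 at 72 h was at 184.7, 206.5 and 97.6 CPM in DMSO and 50.9, 60.1 and 60.5 in actD, and CCNA2, cyclin A2, at 219.5, 162.3 and 73.2 against 108.6, 114.2 and 85.8. In footprints at 72 h, 6 of the list could be tested and 1 was called lower, against 3.79% of all genes called in either direction. UHRF1, which carries DNA methylation through replication, was at 97.3, 197.8 and 62.2 CPM in DMSO and 20.9, 16.3 and 25.0 in actD. Its log2 difference was -2.54 ± 0.48 (SE; edgeR, adjusted p = 0.0473). UHRF1 was low in actD and may have passed the filter on low counts through its DMSO libraries, which would favor a fall. The call ended with DMSO replicate 1 or 2 or actD replicate 1 or 2 left out, with a replicate block and with the looser filter, where no gene was called.

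Histone chaperones and import factors, 21 genes, had 17 negative members in RNA at 72 h, with a median of -0.46 and 0 called. Of the 21, 7 had an unadjusted p under 0.05, a larger share than the 13.1% of all genes. In footprints at 72 h 7 were tested and 1 was called lower, beside the same 3.79%. ATRX, a chromatin remodeler that deposits the replacement variant H3.3, was at 52.0, 67.1 and 74.6 CPM in DMSO and 7.47, 5.44 and 21.4 in actD. The log2 difference was -2.29 ± 0.49 (SE; edgeR, adjusted p = 0.0479). This call ended under the same alternatives as that of UHRF1, with 0 genes called. In DMSO replicate 3, 1 count is 12.4 CPM, so the ATRX value there rests on few counts. Like UHRF1, ATRX may have passed the filter on low counts through its DMSO libraries, which would favor a fall. NAP1L1, a chaperone of H2A and H2B and the most abundant of the list, was at 467.3, 443.3 and 773.7 CPM in DMSO at 72 h and 355.2, 359.6 and 451.1 in actD. At 6 h and 2 weeks the list's RNA medians were -0.06 and -0.05, with 0 called.

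Replacement histone genes and the genes that make histone mRNA had medians near 0 in RNA, with single genes farther away. Of 11 replacement genes tested, 6 were positive at 6 h, 6 at 72 h and 5 at 2 weeks, with medians of 0.05, 0.04 and -0.03 and 0 called. At an unadjusted p under 0.05 there were 1, 1 and 2 of the 11, against 8.21%, 13.1% and 8.93% of all genes, and the 72 h differences ran from -1.05 to 0.34. H3F3B, which encodes H3.3, was at 473.8, 319.4 and 333.2 CPM in DMSO at 72 h and 480.5, 275.5 and 404.7 in actD. Of the 21 histone expression and processing genes tested, 13 were positive at 6 h, 9 at 72 h and 6 at 2 weeks, with medians of 0.05, -0.16 and -0.11 and 0 called. Those at an unadjusted p under 0.05 numbered 3, 4 and 3 of the 21, against the same 8.21%, 13.1% and 8.93% of all genes. Differences over the list ran from -1.003 to 0.44 at 72 h and from -0.73 to 0.68 at 2 weeks, when 15 of 21 were negative. SLBP RNA was at 73.8, 67.2 and 54.0 CPM in DMSO at 6 h and 66.9, 60.3 and 65.5 in actD, overlapping. NPAT, which drives histone gene transcription in S phase, was at 76.8, 60.5 and 55.6 CPM in DMSO at 72 h and 49.0, 46.2 and 45.5 in actD, a log2 difference of -0.46 ± 0.19 (SE; edgeR, adjusted p = 0.373). SLBP was listed at 0 in all 12 footprint libraries of 6 h and 72 h.

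**Figure D5:**
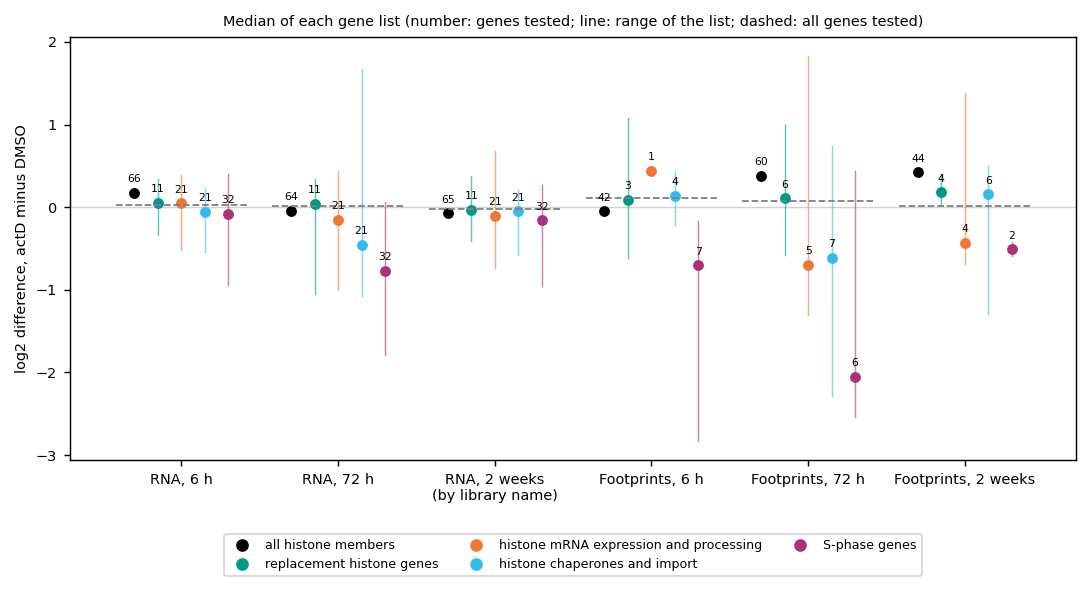
Median log2 difference, actD minus DMSO (y axis), of the histone members and 4 other gene lists in the 6 tables (x axis), with the number of genes tested above each point, thin lines for the range of each of the 4 other lists and a dashed line for the median of all genes tested. The S-phase list lies at -0.77 in RNA at 72 h, where the histone members lie at -0.04, and the histone members lie highest in footprints at 72 h and 2 weeks.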

How the data were processed

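Total RNA and ribosome footprints of WiT49 cells were deposited as 6 tables of estimated counts per gene, made by the authors with HISAT2 and StringTie on hg38, per the submitters' processing notes, with no versions. The deposited counts were already whole numbers, so rounding changed none. RNA libraries were stranded total RNA and footprints small RNA libraries after rRNA depletion, per the labels' protocols, with 2 extraction kits and 2 RNA library kits not tied to libraries. Counting mode, strand and multiply mapped reads are not given in the sources used here. Gene identifiers without version matched GENCODE 29 for 99.3% of rows.

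The members and lists were chosen with earlier results of these data known. Each table was fitted alone with edgeR 4.0.16 (R 4.3.3; TMM scaling, filterByExpr, quasi-likelihood test, two-sided, treatment only), with Benjamini-Hochberg adjustment over all genes tested. CPM were taken on TMM-scaled library sizes. Translational efficiency and time effects were interaction terms in joint fits. The tests were run on simulated counts first. By rule, members are named where they are among the 3 of their class with the highest mean CPM over the RNA tables, or among the 3 largest differences of a comparison with groups apart and an unadjusted p under 0.05; other lists are named by called genes or else their 2 highest. Chosen after their values were seen were HIST1H2AC, HIST2H3PS2, HIST2H4A, HIST1H2BE, HIST1H2BJ, SLBP, NPAT, the members named for level per length and the 4 for efficiency. The labels tie no replicate number to a shared culture or day. In no comparison did the deviations of same-numbered libraries correlate over 0.1 in every pair (RNA at 72 h: 0.069, 0.26 and 0.16), so no replicate block was used. Between RNA and footprints at 72 h the 3 actD pairs were over 0.1 (0.18, 0.18 and 0.42) but the DMSO pairs were not all (0.14, 0.058 and 0.14). Alternatives were DESeq2 1.42.0, library totals, scaling over protein-coding genes, a looser filter, a block, 1 fit over times and leaving out each library. A count of 0 allows up to 3 counts; floors and intervals from counts cover counting error only. At 3 against 3 libraries the smallest exact permutation p is 0.1, so no permutation test was made.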

Additional observations from a re-analysis of the deposited data

How the results depend on the processing

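No histone gene was called under any alternative run except HIST2H3PS2 in RNA at 6 h, by DESeq2 (1 gene) and without DMSO replicate 1 (range 0 to 1 over left-out libraries). With library totals in place of TMM, the ratios of actD to DMSO of the footprint class totals at 6 h moved from 0.975 to 0.562 (H1), 0.743 to 0.417 (H2A), 1.15 to 0.688 (H2B), 1.13 to 0.712 (H3) and 0.991 to 0.610 (H4), with overlapping groups on both scales. Of the 97 differences of members named by rule, 51 changed sign under some alternative, and none of these was called. In RNA at 6 h the differences with 1 library left out ranged from -0.23 to 0.10 for HIST1H1E, from -0.038 to 0.26 for HIST1H1B, from -0.23 to 0.10 for HIST2H3C, from -0.24 to 0.092 for HIST2H3A, from -0.076 to 0.25 for HIST1H3B, from -0.043 to 0.23 for HIST1H4E and from -0.011 to 0.31 for HIST1H4C. In RNA at 72 h the differences with 1 library left out ranged from -0.54 to 0.014 for HIST1H1E, from -0.26 to 0.17 for HIST1H1C, from -0.62 to 0.014 for HIST1H1B, from -0.20 to 0.62 for HIST2H2AA4, from -0.20 to 0.62 for HIST2H2AA3, from -0.14 to 0.71 for HIST2H2AC, from -0.0072 to 0.57 for HIST2H2BE, from -0.38 to 0.33 for HIST1H2BC, from -0.30 to 0.49 for HIST2H3C, from -0.30 to 0.49 for HIST2H3A, from -0.50 to 0.16 for HIST1H3B, from -0.36 to 0.11 for HIST1H4E and from -0.31 to 0.085 for HIST1H4C. In RNA at 2 weeks the differences with 1 library left out ranged from -0.12 to 0.22 for HIST1H1E, from -0.30 to 0.020 for HIST1H1C, from -0.30 to 0.078 for HIST1H1B, from -0.14 to 0.21 for HIST2H2AA4, from -0.15 to 0.21 for HIST2H2AA3, from -0.035 to 0.30 for HIST2H2AC, from -0.16 to 0.61 for HIST2H2BF, from -0.13 to 0.26 for HIST2H2BE, from -0.065 to 0.24 for HIST1H2BC, from -0.26 to 0.045 for HIST2H3C, from -0.26 to 0.054 for HIST2H3A, from -0.30 to 0.073 for HIST1H3B and from -0.16 to 0.078 for HIST1H4C. In footprints at 6 h the differences with 1 library left out ranged from -0.56 to 0.0093 for HIST1H1C, from -0.14 to 0.11 for HIST1H1B, from -0.15 to 0.53 for HIST2H2AC, from -0.56 to 0.087 for HIST2H2BE, from -0.18 to 0.69 for HIST1H2BC, from -0.54 to 0.16 for HIST2H3C, from -0.41 to 0.29 for HIST2H3A, from -0.52 to 0.051 for HIST1H3B, from -0.17 to 0.66 for HIST2H4B and from -0.65 to 0.46 for HIST1H4C. In footprints at 72 h the differences with 1 library left out ranged from -0.20 to 0.48 for HIST2H2AA4, from -0.20 to 0.54 for HIST2H2AA3 and from -0.25 to 0.22 for HIST1H4C. In footprints at 2 weeks the differences with 1 library left out ranged from -0.23 to 0.75 for HIST1H1E, from -0.099 to 0.32 for HIST2H2BF, from -0.10 to 0.32 for HIST1H2BC and from -0.039 to 0.42 for HIST1H4C. Without both replicates 3 the sign turned to 0.05 for HIST1H1C (RNA at 72 h) and to -0.072 for HIST1H2BC (RNA at 72 h). With the replicate block the sign turned to 0.018 for HIST1H3B (RNA at 72 h), to 0.013 for HIST2H2BE (RNA at 2 weeks) and to 0.044 for HIST1H4C (footprints at 72 h). With library totals in place of TMM the sign turned to -0.14 for HIST1H1E (RNA at 2 weeks), to -0.067 for HIST2H2AC (RNA at 2 weeks), to -0.11 for HIST1H2BC (RNA at 2 weeks), to -0.013 for HIST1H4E (RNA at 2 weeks), to -0.80 for HIST1H1B (footprints at 6 h), to -0.55 for HIST2H2AC (footprints at 6 h), to -0.61 for HIST1H2BC (footprints at 6 h), to -0.75 for HIST2H3A (footprints at 6 h), to -0.19 for HIST2H4B (footprints at 6 h), to -0.12 for HIST2H2AA4 (footprints at 72 h), to -0.15 for HIST2H2AA3 (footprints at 72 h), to -0.16 for HIST1H1E (footprints at 2 weeks), to -0.11 for HIST2H2BF (footprints at 2 weeks) and to -0.082 for HIST1H2BC (footprints at 2 weeks). In one fit over 3 times the sign turned to 0.010 for HIST2H2BE (RNA at 2 weeks), to -0.075 for HIST2H3A (footprints at 6 h) and to 0.16 for HIST1H4C (footprints at 72 h). With the looser filter the sign turned to -0.040 for HIST1H1B (footprints at 6 h), to -0.16 for HIST2H3A (footprints at 6 h) and to 0.0072 for HIST1H4C (footprints at 72 h). With scaling over protein-coding genes the sign turned to 0.038 for HIST1H4C (footprints at 6 h) and to 0.029 for HIST1H4C (footprints at 72 h). Counts over all genes did move. DESeq2 called 204, 605 and 197 genes in RNA at 6 h, 72 h and 2 weeks, 12 in footprints at 6 h, 1, 60 and 1 for efficiency at the 3 times, and 158 and 6 for time effects in RNA and footprints. One fit over 3 times called 1 at 6 h and 1212 at 72 h in RNA and 1 in footprints at 6 h. Library totals without TMM called 6 in 2-week RNA and 7 in 72 h footprints, where the looser filter called 0. Chosen after seeing the data, leaving out both replicates 3 at 72 h in RNA called 419, and grouping 2-week RNA by title called 27 for efficiency. The replicate block called 0 histone genes everywhere and 0 genes in RNA at 72 h, footprints at 72 h, efficiency at 72 h and the RNA time effect. At 72 h in RNA each actD library correlated best with the DMSO library of its own number, a hint from the data and not from the design. With 1 library left out the called genes in RNA numbered 0 to 6 (6 h), 0 to 3 (72 h) and 2 to 10 (2 weeks), with 0 to 282 in footprints at 72 h, 0 to 5, 7 to 41 and 0 to 3 for efficiency, and 1 to 38 for the RNA time effect. Medians of the members then ranged from 0.01 to 0.32, -0.38 to 0.31 and -0.18 to 0.16 in RNA and from -0.50 to 0.28, 0.19 to 0.71 and 0.30 to 0.52 in footprints. The cause was not tested. Where an arm was left with 2 libraries the fit still pooled the spread. With 24 to 37 footprint counts for the median tested member, depth limits single footprint values.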

Other observations

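Histone pseudogenes, near copies that can share reads with members, were measurable in RNA only. Of the 19 in GENCODE 29, 7 could be tested at 6 h, 7 at 72 h and 8 at 2 weeks, with 0 called and medians of 0.22, 0.13 and 0.09, and 0 in footprints. Their summed level at 72 h was 220.1, 263.5 and 60.6 CPM in DMSO and 258.1, 271.9 and 133.9 in actD, low in replicate 3 of both arms as for the members. In footprints at 72 h they were listed at 0 in all 6 libraries.

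RNU7-1, the U7 small nuclear RNA that guides histone mRNA cleavage and codes for no protein, was counted in the footprint libraries. At 6 h it was at 194.8, 388.3 and 115.4 CPM in DMSO and 744.0, 76.8 and 128.1 in actD, a log2 difference of 0.44 ± 1.03 (SE; edgeR, adjusted over all genes, not called).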
